A study of Mus musculus with 6 samples.

Results

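The mouse counterparts of genes lost in the human 5q deletion were followed in LKS+ cells of Apcmin and wild-type (WT) mice. The set was a fixed list of 37 mouse orthologs of genes on human 5q31-q33, and 36 of them were measured among 18193 genes on the array. Ndst1, an enzyme of heparan sulfate synthesis, was not analysed here. LKS+ cells are lineage-negative, c-Kit high and Sca-1 positive, the compartment that contains hematopoietic stem cells and early progenitors. There were 3 arrays of Apcmin cells and 3 of WT cells. The Apcmin group carries Min, a nonsense allele of Apc. It is a germline allele, present in every tissue and not in blood alone, and such mice are kept as heterozygotes because homozygous embryos die. Strain, age and sex were not stated in the sources used here. Each mouse gave 20000 sorted cells or more, more than 90% pure, per the labels. The animals behind the arrays are not named, so p-values rest only on the spread between these arrays, which the test shares in part across probe sets.

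Deletion of part of the long arm of human chromosome 5 is a frequent lesion of myelodysplastic syndromes. It removes one copy of many genes at once, and several of them, each at reduced dose, have been tied to the disease: RPS14, a ribosomal protein, to the failure of red cell production, and CTNNA1, HSPA9, HNRNPA0, DIAPH1 and others to abnormal growth or survival of stem and myeloid cells. APC also lies on human 5q, outside the listed interval, and the series title offers Apcmin mice as a model for MPD/MDS, that is, for myeloproliferative and myelodysplastic disease. Min is a mutation of Apc and not a deletion of the listed genes, so the comparison asks whether their transcript levels differed when Apc was mutant.

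In the RefSeq annotation of the mouse assembly GRCm38.p6 the human interval is split over 3 mouse chromosomes. Of the 36 measured genes, 22 lie on chromosome 18, where Apc lies too, 10 on chromosome 11 and 4 on chromosome 13. The chromosome 18 genes form 2 separate groups, 16 genes from Brd8 and Cdc23 through Etf1, Hspa9 and Ctnna1 to Nr3c1, and 6 genes from Dctn4 and Rbm22 through Rps14 and Tcof1 to Camk2a and Pdgfrb. Sec24a, Sar1b, Ube2b, Ppp2ca, Anxa6, Gm2a, Atox1, G3bp1, Larp1 and Cnot8 lie on chromosome 11, and Ddx46, Lect2, Tgfbi and Hnrnpa0 on chromosome 13.

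Most of these genes gave a clear signal in LKS+ cells. Values are log2 of the authors' normalized intensity, and each gene was represented by the brightest of its probe sets over the 6 arrays. The mean log2 intensity was at least 6 for 34 of the 36 genes (94.4%), against 47.6% of all genes. Lect2 and Reep2 were the exceptions, and the next gene in that order, Sec24a, was at 7.45. Probe sets bind their targets with different strength, so a higher intensity of 1 gene than of another does not rank their transcripts.

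**Figure D1:**
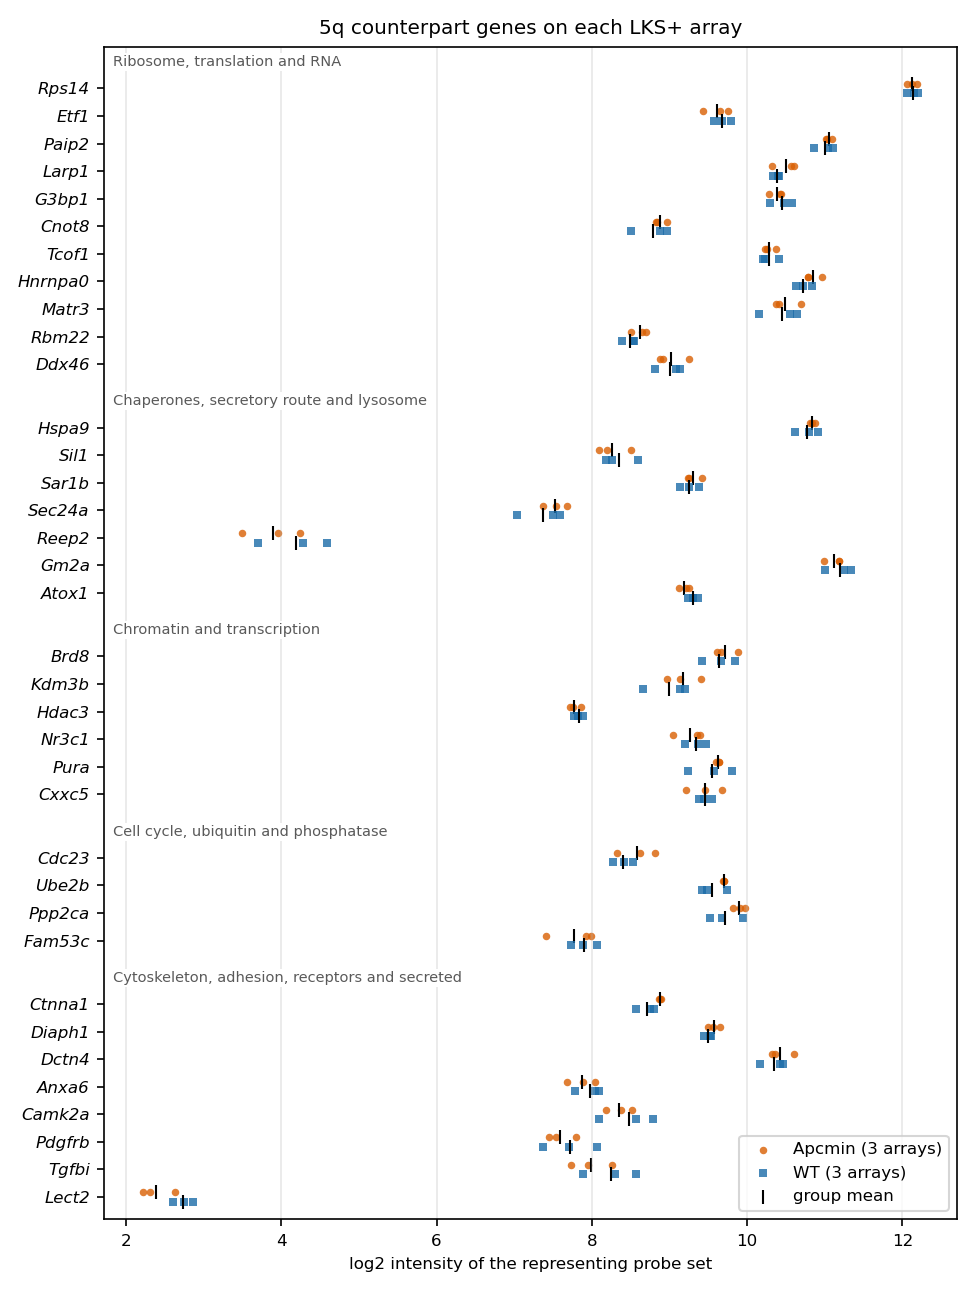
Log2 intensity (x axis) of the probe set that represents each of the 36 genes (y axis, grouped by role), with 3 Apcmin arrays as orange circles above 3 WT arrays as blue squares and the group means as black ticks. The groups overlap for all genes but Ctnna1, and Lect2 and Reep2 lie far to the left of the other 34.

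Of the surface markers that define the sort only Kit was analysed here, at a mean of 9.83. All 10 measured genes of an 11-gene list for immature blood cells had a mean of at least 6, among them Kit, Cd34, Flt3 and Gata2. Of 9 measured lymphoid markers 1 (Cd79b) reached that level, of 12 monocyte and macrophage markers 4 (Csf1r, Ccr2, Lyz2 and Mpeg1), of 11 stromal and endothelial markers 1 (Pecam1) and of 8 erythroid markers 5 (Gata1, Klf1, Car1, Car2 and Tfrc). The summed intensity of the erythroid markers varied within each group, from 6627 to 9565 in Apcmin and from 6469 to 8778 in WT. Median log2 intensity per array ran from 4.14 to 4.17 in Apcmin and from 4.12 to 4.18 in WT. Apc was at 7.80 ± 0.09 in Apcmin cells and 7.72 ± 0.09 in WT cells (SD, n = 3 each). Since Min is a point mutation, the level of the transcript is no firm check of the genotype.

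No 5q counterpart gene passed the test between Apcmin and WT cells. With limma fitted over 45037 probe sets, 0 of 36 genes had a Benjamini-Hochberg adjusted p under 0.05, where 0 of all 18193 genes (0%) did. The smallest adjusted p among the 36 was 0.954, as it was over the whole table. At an unadjusted p under 0.05 there were 0 of the 36, against 3.11% of all genes.

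The estimates were small in both directions, from -0.35 for Lect2 to 0.18 for Ppp2ca on the log2 scale, Apcmin minus WT. The mean was higher in Apcmin for 20 genes and lower for 16, with a median difference of 0.027. Over all genes 43.0% had a higher mean in Apcmin and the median was -0.036, while among the 8658 genes with a mean of at least 6 the share was 56.3% and the median 0.023. The 5q share of 55.6% covers all 36 genes. For the 34 with a mean of at least 6 the share was 58.8% and the median 0.046, against 56.3% and 0.023 for bright genes. Over all 36, without WT replicate 1 the count was 14 and the median -0.020. Without WT replicate 2 that median was -0.010, so the direction of the small shift rested on single WT arrays. The 3 Apcmin values stood on one side of all 3 WT values in 1 of 36 genes (2.78%), against 7.73% of all genes and 7.63% of those with a mean of at least 6. That gene, Ctnna1, was higher in Apcmin, as were 2.97% of all genes by the same measure.

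The precision of each estimate bears on how large a difference could have gone unseen. The 95% confidence interval of the difference had a half-width between 0.32 and 0.69, with a median of 0.39. It lay inside a 2-fold difference in either direction for 36 of 36 genes and inside a 1.5-fold difference for 27. The other 9 were Sec24a, Reep2, Kdm3b, Cdc23, Fam53c, Camk2a, Pdgfrb, Tgfbi and Lect2. These intervals are not adjusted for the number of genes, and arrays can understate fold changes of very bright or very dim probe sets. The limma fit also draws the spread of each gene toward that of all probe sets. For Rps14 the within-group SD was 0.068 and the standard error of the difference 0.13, so the half-widths are not the array scatter of a single gene.

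**Figure D2:**
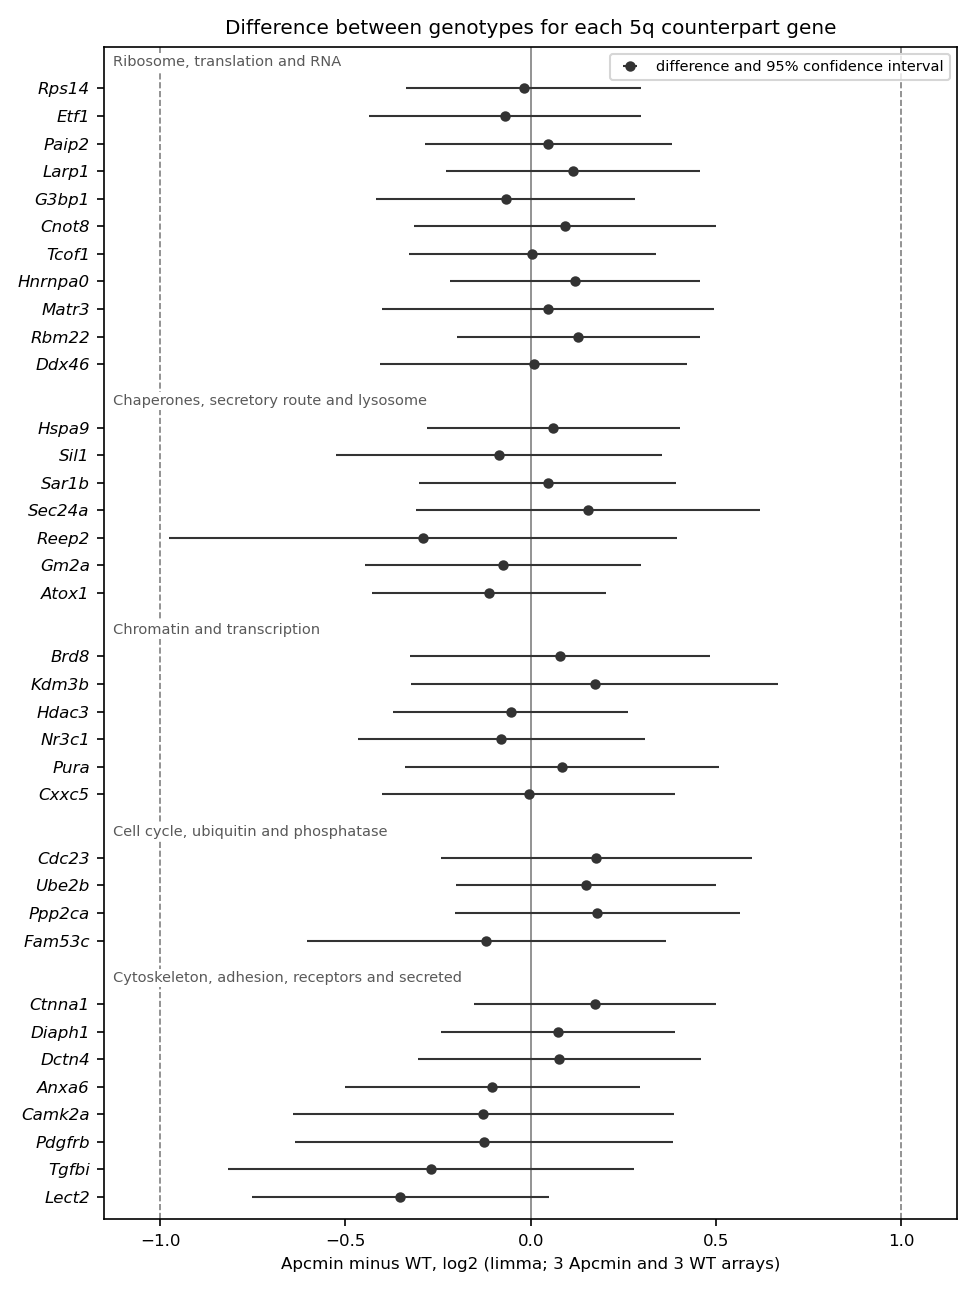
Apcmin minus WT difference on the log2 scale (x axis) for each of the 36 genes (y axis, grouped by role), with points for the limma estimate and bars for its 95% confidence interval over 3 Apcmin and 3 WT arrays. Dashed lines mark a 2-fold difference, and all 36 bars cross 0 and stay between the dashed lines, with Reep2 closest to one.

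Genes of the ribosome, of translation and of RNA handling had differences of at most 0.13 in size. The Apcmin mean was higher for 8 of 11 genes and lower for 3, and 0 passed the test. The median difference was 0.046 and the lowest was -0.070. Rps14, a protein of the small ribosomal subunit, was at 12.06, 12.19 and 12.12 in Apcmin cells, against 12.15, 12.06 and 12.20 in WT cells. The 6 values spanned 0.145 and the groups overlapped throughout. Its difference of -0.018 had a confidence interval of -0.34 to 0.30, or 0.793-fold to 1.23-fold. Both Rps14 probe sets carry the suffix _x_at, by which Affymetrix marks probes that also match other transcripts, and the second set differed by 0.043. Among 23 other small-subunit ribosomal protein genes and Rps14 together, the Apcmin mean was higher for 12 and lower for 12, with a median of -0.0077. In the 19 with a mean of at least 10, Rps14 among them, the differences ran from -0.070 for Rps26 to 0.072 for Rps9. That limit was chosen after the values were seen.

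Tcof1, the nucleolar protein treacle that promotes transcription of ribosomal RNA, was at 10.25, 10.23 and 10.37 in Apcmin cells, against 10.20, 10.41 and 10.23 in WT cells. The groups overlapped and the difference was 0.0042. The 2 other Tcof1 sets had the opposite sign, with differences of -0.35 and -0.058. Etf1, the release factor that ends translation, was at 9.76, 9.43 and 9.65 in Apcmin cells, against 9.79, 9.68 and 9.58 in WT cells. Apcmin replicate 2 was the lowest of the 6 arrays for Etf1, and the other 3 Etf1 probe sets with a mean of at least 6 had the opposite sign, with differences of 0.16, 0.088 and 0.20. Paip2, which restrains translation by binding the poly(A)-binding protein, was at 11.03, 11.10 and 11.01 in Apcmin cells, against 10.86, 11.04 and 11.11 in WT cells. WT replicate 1 alone was low for Paip2, and the difference was 0.048 with an interval of -0.29 to 0.38.

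Hnrnpa0, an RNA-binding protein that acts on the stability of messenger RNAs in myeloid cells, was at 10.96, 10.78 and 10.79 in Apcmin cells, against 10.71, 10.63 and 10.83 in WT cells. WT replicate 3 lay above 2 of the Apcmin arrays, and the difference of 0.12 had an interval of -0.22 to 0.46. The splicing factors Rbm22 and Ddx46 differed by 0.13 and 0.0084, and for Ddx46 the other 4 probe sets differed by between -0.030 and 0.21. Larp1, which binds messenger RNAs of the translation machinery, differed by 0.11, and Cnot8, a deadenylase that shortens poly(A) tails, by 0.092. G3bp1, a core protein of stress granules, differed by -0.068 and Matr3, an RNA-binding protein of the nuclear matrix, by 0.046. All of these intervals included 0.

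Chaperones and genes of the secretory route and the lysosome gave 3 higher and 4 lower means among 7 genes, with a median of -0.075, and 0 passed the test. Hspa9, the mitochondrial chaperone mortalin, was at 10.80, 10.83 and 10.88 in Apcmin cells, against 10.62, 10.91 and 10.79 in WT cells. The 3 Apcmin values lay between the lowest and the highest WT value. The difference was 0.062 with an interval of -0.28 to 0.40, and the second bright Hspa9 probe set differed by 0.17. Gm2a, the lysosomal activator of ganglioside breakdown, was at 11.19, 11.18 and 10.99 in Apcmin cells, against 11.24, 11.00 and 11.34 in WT cells, and its groups overlapped with a difference of -0.075.

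Atox1, a copper chaperone, was at 9.12, 9.25 and 9.21 in Apcmin cells, against 9.30, 9.37 and 9.24 in WT cells. The values were close together, 2 of the WT arrays stood above all Apcmin arrays and WT replicate 3 was below Apcmin replicate 2. Its difference of -0.11 had an interval of -0.43 to 0.20, and all 3 other Atox1 probe sets had the same sign. Sec24a and Sar1b belong to the COPII coat that carries proteins out of the endoplasmic reticulum. Sec24a was at 7.67, 7.36 and 7.54 in Apcmin cells, against 7.50, 7.03 and 7.58 in WT cells, where WT replicate 2 was the low array. The Sec24a difference was 0.15, and its only other probe set, with a mean under 6, had the opposite sign. Sar1b differed by 0.046. Sil1, a helper of the chaperone BiP, differed by -0.085. Reep2, a protein that shapes the endoplasmic reticulum and is known mainly from neurons, was dim, at 3.50, 3.96 and 4.24 in Apcmin cells, against 4.28, 4.59 and 3.70 in WT cells. Its groups overlapped and its interval, -0.98 to 0.39, was the widest of the 36. The difference of -0.29 lay between -0.53 and -0.090 with 1 array left out.

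Genes of chromatin and transcription split evenly, with 3 of 6 higher and 3 lower in Apcmin, a median difference of 0.037 and 0 past the test. Brd8, a subunit of the Tip60 acetyltransferase complex, was at 9.61, 9.88 and 9.66 in Apcmin cells, against 9.42, 9.84 and 9.66 in WT cells. All 5 other Brd8 probe sets had the same sign as this difference of 0.079, between 0.028 and 0.27, while WT replicate 1 was the lowest array of the representing set. Kdm3b, a histone demethylase, was at 9.40, 8.97 and 9.14 in Apcmin cells, against 8.65, 9.14 and 9.20 in WT cells. WT replicate 1 was low and Apcmin replicate 1 high, and the difference of 0.17 was -0.00086 without WT replicate 1.

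Nr3c1, the glucocorticoid receptor, was at 9.05, 9.39 and 9.35 in Apcmin cells, against 9.20, 9.46 and 9.36 in WT cells, with overlapping groups and a difference of -0.079. The other 2 bright Nr3c1 probe sets had the opposite sign, at 0.15 and 0.23. Cxxc5, a CXXC zinc finger protein, was at 9.22, 9.68 and 9.46 in Apcmin cells, against 9.38, 9.54 and 9.45 in WT cells. The Apcmin arrays of Cxxc5 spread on both sides of the WT arrays, and the difference of -0.0058 came with a larger SD in Apcmin (0.23) than in WT (0.08, n = 3 each). Hdac3, a histone deacetylase, differed by -0.054 over a range of 0.18. Pura, which binds single-stranded DNA and RNA, differed by 0.084, and all 5 of its other probe sets were also higher in Apcmin, by 0.12 to 0.51, and each had an adjusted p no lower than 0.954.

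Of the 4 genes of the cell cycle, ubiquitin transfer and dephosphorylation, the Apcmin mean was higher for 3 and lower for 1. The median difference was 0.16, and 0 passed the test. Ppp2ca, the catalytic subunit of protein phosphatase 2A, was at 9.97, 9.90 and 9.82 in Apcmin cells, against 9.67, 9.52 and 9.95 in WT cells. WT replicate 3 stood among the Apcmin arrays and the other WT arrays below them. The difference of 0.18 had an interval of -0.21 to 0.56, and of its 2 other probe sets 1 had the opposite sign, at -0.46. Ube2b, a ubiquitin-conjugating enzyme, was at 9.70, 9.70 and 9.69 in Apcmin cells, against 9.42, 9.48 and 9.74 in WT cells. The Apcmin arrays lay close together, WT replicate 3 lay above them, and the other bright probe sets differed by -0.082 and 0.15.

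Cdc23, a subunit of the anaphase-promoting complex, was at 8.81, 8.33 and 8.61 in Apcmin cells, against 8.42, 8.27 and 8.53 in WT cells. The groups overlapped and the difference was 0.18 with an interval of -0.24 to 0.60. Fam53c differed by -0.12, with Apcmin replicate 3, at 7.41, below the other arrays. Ppp2ca, Ube2b and Cdc23 kept a higher Apcmin mean when each array was left out, between 0.084 and 0.30 for Ppp2ca, between 0.087 and 0.25 for Ube2b and between 0.063 and 0.31 for Cdc23. When the probe sets of a gene were averaged, the Ppp2ca difference turned to -0.068.

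Genes of the cytoskeleton, of adhesion, receptors and secreted proteins had 3 higher and 5 lower means among 8, a median of -0.11 and 0 past the test. Ctnna1, alpha-catenin, which links beta-catenin and cadherins to actin, was at 8.86, 8.89 and 8.88 in Apcmin cells, against 8.74, 8.80 and 8.57 in WT cells. It was the gene whose groups did not overlap. Its difference of 0.17 was 1.13-fold with an interval of -0.15 to 0.50 (limma, adjusted p = 0.954), and with 1 array left out it lay between 0.11 and 0.22. The second bright Ctnna1 set had WT replicate 1 above all Apcmin arrays and differed by 0.13. The 2 dim sets differed by -0.39 and 0.015, and the mean of the 4 sets by -0.018, so the direction turned when the sets were averaged. Diaph1, a formin that nucleates actin filaments, was at 9.50, 9.56 and 9.65 in Apcmin cells, against 9.54, 9.52 and 9.44 in WT cells, with a difference of 0.073. The 2 other Diaph1 sets, with means of 5.90 and 4.32, had the opposite sign, at -0.35 and -0.28. Dctn4, a subunit of the dynactin complex, differed by 0.077, and Anxa6, a membrane-binding annexin, by -0.10.

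Tgfbi, a matrix protein induced by TGF-beta and abundant in monocytes, was at 7.73, 8.27 and 7.95 in Apcmin cells, against 7.89, 8.29 and 8.57 in WT cells. WT replicate 3 was the highest and Apcmin replicate 1 the lowest array, and the difference of -0.27 had an interval of -0.82 to 0.28. It was -0.11 without WT replicate 3 and -0.45 without WT replicate 1. The 2 other Tgfbi probe sets with a mean of at least 6 differed by -0.19 and -0.15. Of the 12 monocyte and macrophage markers 10 also had a lower mean in Apcmin, and their summed intensity ran from 2012 to 2353 in Apcmin and from 2323 to 2474 in WT. A lower mean was found for 10374 of all 18193 genes, and for 3784 of the 8658 with a mean of at least 6. The 4 monocyte and macrophage markers at that level, Csf1r, Ccr2, Lyz2 and Mpeg1, differed by -0.18, -0.089, -0.11 and -0.23. In the other lists 8 of 9 lymphoid, 7 of 11 stromal and endothelial, 3 of 8 erythroid and 3 of 10 immature blood cell markers were lower. By mean level the monocyte and macrophage markers ran from 1.95 for Ms4a7 to 10.50 for Lyz2, with Itgam and Adgre1 at 2.70 and 2.63 and Csf1r and Mpeg1 at 8.33 and 8.01. The part of such cells in the Tgfbi value was not tested. In sorted bulk cells, fewer cells of a type and less RNA per cell cannot be told apart.

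Lect2, a secreted chemotactic protein made mainly by the liver, was at 2.22, 2.63 and 2.31 in Apcmin cells, against 2.75, 2.86 and 2.60 in WT cells. The Apcmin arrays lay lower, but Apcmin replicate 2 was just above WT replicate 3. The difference of -0.35 had the smallest unadjusted p of the 36, 0.076, and an interval of -0.75 to 0.048 (limma, adjusted p = 0.954). No detection call came with this low intensity. Camk2a, a calcium-dependent kinase best known from neurons, differed by -0.13 and Pdgfrb, a receptor of stromal and perivascular cells, by -0.12. The second Pdgfrb set had the opposite sign, at 0.20. The 11 stromal and endothelial markers had means from 2.13 for Pdgfra to 6.86 for Pecam1. Of these markers 4 were higher and 7 lower in Apcmin, their summed intensity ran from 218 to 295 in Apcmin and from 210.4 to 323 in WT, and their part in the Pdgfrb value was not tested.

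Each representing set was compared with the other probe sets of its gene. The 36 genes had 109 probe sets, and 26 genes had more than 1. Of the 73 other sets, 45 had the sign of the representing one, 24 of the 36 with a mean of at least 6 and 21 of the 37 dimmer ones. At an unadjusted p under 0.05 there were 5 of 109 sets (4.59%), against 3.81% of all probe sets. They belonged to Anxa6 (-0.37), Camk2a (-0.71), Dctn4 (0.53), Etf1 (-0.90) and Kdm3b (-0.80), none represented its gene, 4 of the 5 had a mean under 6, and each had an adjusted p of 0.954. For Camk2a the dim set was at 3.68, 3.67 and 3.80 in Apcmin cells, against 4.28, 4.44 and 4.56 in WT cells. All 5 other Camk2a sets had the same sign as the representing one, but all had a mean under 6, from 1.81 to 5.90. Only the representing set, at 8.42, was bright. The dim Kdm3b set had the opposite sign to its representing set, and the dim Etf1 set shared the sign of the representing set but not of the other 3 bright ones.

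**Figure D3:**
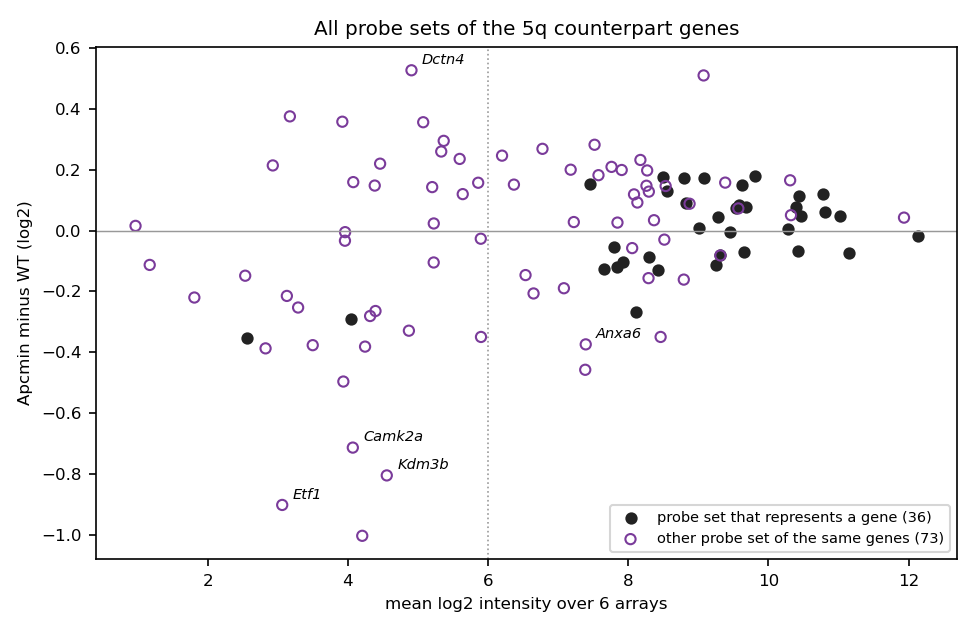
Apcmin minus WT difference on the log2 scale (y axis) against the mean log2 intensity over 6 arrays (x axis) for 36 representing probe sets (filled) and 73 other sets of the same genes (open); names mark the 5 sets with an unadjusted p under 0.05 and the dotted line a mean of 6. Sets to the right of that line lie between -0.46 and 0.51, and the spread widens among the dimmer sets.

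The differences were also set beside those of other genes on the same chromosomes. The median difference was 0.025 for the 22 genes on chromosome 18, against -0.035 for all chromosome 18 genes and 0.019 for the 223 of them with a mean of at least 6. It was 0.069 for the 10 genes on chromosome 11, against -0.047 for all genes there and 0.0048 for 729 with a mean of at least 6. For the 4 genes on chromosome 13 it was -0.13, with Tgfbi and Lect2 lower and Ddx46 and Hnrnpa0 higher in Apcmin, against -0.026 for all genes there. The 3 of them with a mean of at least 6, without Lect2, had a median of 0.0084, that of Ddx46, against 0.039 for 329 such genes on the chromosome. The chromosome 18 group around Etf1 and Hspa9 had a median of 0.047 over 16 genes, and the group around Rps14 one of -0.0069 over 6.

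The arrays of a group varied among themselves. The within-group SD had a median of 0.16 over the 36 genes, against 0.18 over all genes with a mean of at least 6. It was lowest for Diaph1, Hdac3, Rps14 and Atox1, all between 0.065 and 0.068, and highest for Reep2, at 0.41, and Tgfbi, at 0.31. Apcmin arrays held the highest value of 15 genes and the lowest of 15, while WT arrays held the highest of 21 and the lowest of 21. Among bright genes WT replicates 1, 2 and 3 held the highest value in 18.7%, 15.4% and 15.6%. They held the lowest value in 28.0%, 21.7% and 9.69% of bright genes. WT replicate 1 was the lowest array for 10 genes (27.8%), Hspa9, Brd8, Kdm3b and Paip2 among them, against 28.0% of bright genes. WT replicate 2 was the highest array for 10 genes (27.8%, against 15.4% of bright genes) and the lowest for 9 (25.0%, against 21.7%). Those 9 were Cnot8, Hnrnpa0, Matr3, Sar1b, Sec24a, Pura, Cdc23, Ppp2ca and Dctn4, and WT replicate 3 was the highest array for 9 genes.

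**Figure D4:**
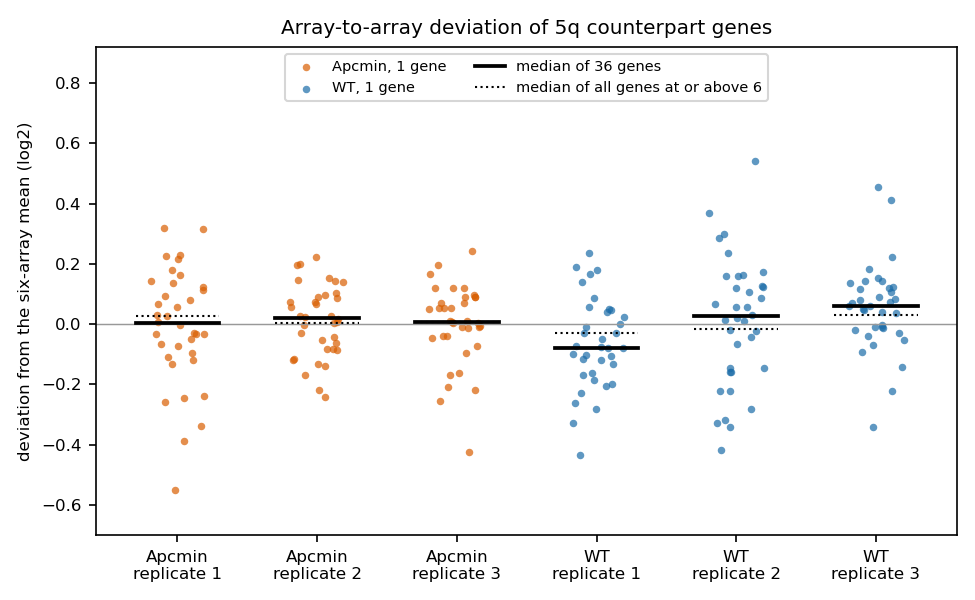
Deviation of each of the 36 genes from its six-array mean (y axis, log2) on the 3 Apcmin arrays (orange) and the 3 WT arrays (blue), with thick lines for the median of the 36 genes and dotted lines for the median of all genes with a mean of at least 6. The median of the 36 genes is between 0.0027 and 0.021 on the Apcmin arrays, and on the WT arrays it is -0.078, 0.026 and 0.059.

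Other genes of the human interval, taken from a list of 53, were measured beside them. Among 50 measured genes the Apcmin mean was higher for 22 and lower for 28, the median was -0.017, and 0 passed the test. Among the 34 with a mean of at least 6 the numbers were 18 and 16, with a median of 0.0086. Egr1, an immediate early transcription factor, was at 9.69, 9.87 and 10.35 in Apcmin cells, against 10.21, 9.72 and 9.60 in WT cells, with a difference of 0.13. Csnk1a1, casein kinase 1 alpha of the beta-catenin destruction complex, differed by 0.015, with an interval of -0.35 to 0.38. Csf1r, the receptor of macrophage colony-stimulating factor, differed by -0.18.

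The smallest p among the lower genes of that list belonged to Pcyox1l, at 4.56 ± 0.22 in Apcmin cells and 5.13 ± 0.11 in WT cells, and to Cd14, a monocyte receptor, at 3.31 ± 0.51 in Apcmin cells and 4.33 ± 0.55 in WT cells (SD, n = 3 each). Both were dim and neither passed (limma, adjusted p = 0.954 for both). Among the higher genes they belonged to Hbegf, a growth factor, with a difference of 0.57 that spread widely in Apcmin cells (SD 0.72), and to Rnf14, a ubiquitin ligase, which was at 8.85 ± 0.041 in Apcmin cells and 8.71 ± 0.033 in WT cells.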

How the data were processed

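RNA from sorted LKS+ cells was linearly amplified and hybridized to Affymetrix mouse expression arrays, per the labels. The deposited table holds the authors' normalized intensity values, linear in scale, with a single value for each probe set on each array. The submitters' processing notes name RMA, without a version. RMA commonly gives log2 values with equal distributions, whereas these were linear and their distributions differed between arrays, so the step that made them is unknown. All values were positive and were taken to log2 with no pseudocount. No detection call was given, and the number of arrays limits the precision. Control probe sets (64 of 45101) were removed. A single gene symbol was annotated for 34945 probe sets, and the brightest of them stood for each of 18193 genes; chromosomes came from RefSeq (GRCm38.p6).

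Differences between Apcmin and WT were tested two-sided by limma 3.58.1 in R 4.3.3, with a term for genotype alone, and Benjamini-Hochberg adjustment covered 45037 probe sets at 0.05. Groups of genes are described by counts and medians, with no test over the group. All listed genes are named. Values per array are given for 12 genes, most of them tied to the deletion, the 4 with the smallest p in each direction, the 3 brightest, the 3 dimmest and any whose groups did not overlap. The members and lists were chosen with earlier results of these data known. Alternatives were averaging a gene's probe sets, 2 filters on dim sets, quantile normalization, a floor at 4, a pseudocount of 16, a variance trend, array weights, a replicate block and leaving out each array. A further one, avoiding sets whose identifier ends in _s_at or _x_at, was chosen after seeing the data.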

Additional observations from a re-analysis of the deposited data

How the results depend on the processing

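No gene passed the limma threshold under any of the 16 alternative settings, and the lowest adjusted p of a listed gene was 0.402, without WT replicate 3. The number with a higher Apcmin mean, 20 of 36, was 18 after quantile normalization, 17 when a gene's probe sets were averaged and between 14 and 21 with 1 array left out. The median difference of 0.027 was -0.022 for averaged probe sets, -0.020 without WT replicate 1, -0.010 without WT replicate 2 and 0.060 without WT replicate 3, and other settings gave 0.0071 to 0.046. The replicate block gave 20 of 36 and 0.027 and changed no call. Deviations of same-numbered arrays from their group means correlated at 0.05, -0.05 and -0.25, and those of differently numbered arrays at -0.16 to 0.21. With 3 arrays per group these values cannot decide whether the replicate numbers pair the arrays. In every setting that gave a value, 12 of the 36 genes kept their sign; Lect2 and Reep2, 2 of the 12, drop out under both filters on dim sets. With all arrays kept, the sign turned in 15 of 354 recomputed differences: for averaged probe sets in Rps14 (0.012), Tcof1 (-0.13), Hspa9 (-0.030), Sec24a (-0.42), Gm2a (0.0094), Kdm3b (-0.32), Nr3c1 (0.098), Ppp2ca (-0.068), Ctnna1 (-0.018), Diaph1 (-0.19) and Pdgfrb (0.038); after quantile normalization in Tcof1 (-0.020) and Ddx46 (-0.0063); and with array weights in Rps14 (0.0047) and Tcof1 (-0.028). Averaging weighs dim sets like bright ones. Leaving out 1 array turned the sign of 20 genes, with ranges of -0.024 to 0.10 for Paip2, -0.040 to 0.069 for Tcof1, -0.11 to 0.077 for Ddx46, -0.016 to 0.13 for Hspa9, -0.032 to 0.18 for Brd8, -0.00086 to 0.27 for Kdm3b, -0.049 to 0.19 for Cnot8, -0.10 to 0.14 for Matr3, -0.21 to 0.037 for Sil1, -0.016 to 0.11 for Sar1b, -0.016 to 0.26 for Sec24a, -0.065 to 0.22 for Pura, -0.12 to 0.11 for Cxxc5, -0.016 to 0.13 for Dctn4, -0.33 to 0.023 for Camk2a, -0.056 to 0.014 for Rps14, -0.30 to 0.050 for Pdgfrb, -0.15 to 0.030 for Nr3c1, -0.14 to 0.022 for Etf1 and -0.23 to 0.063 for Fam53c. The cause was not tested. Rps14 and Hdac3 have no set without those suffixes and were not recomputed there.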
